A study of Mus musculus with 8 samples.

Results

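The 10 genes described here encode the 5 NF-κB subunits (Nfkb1, Nfkb2, Rela, Relb and Rel), 3 cytoplasmic inhibitors of the IκB family (Nfkbia, Nfkbib and Nfkbie), the feedback regulator Tnfaip3 and the nuclear IκB protein Bcl3. They were chosen by symbol, with earlier results of these data known, and each matched 1 of the 54018 gene identifiers measured. RNA abundance had been measured in splenic mononuclear cells of leukaemic C57BL/6 mice. In 4 libraries (replicates 1, 2, 5 and 4, called knockdown) the genotype was Kdm1aKD;Eµ-TCL1A, with a doxycycline-inducible construct that lowers the histone demethylase Kdm1a. In the other 4 libraries (replicates 1 to 4, called control) the mice were Eµ-TCL1A without that construct. Both groups thus carried the Eµ-TCL1A transgene, which drives the human TCL1A oncogene in B cells and gives a model of chronic lymphocytic leukaemia. The labels give no age, do not tie a library to 1 animal and do not say whether control mice received doxycycline, and p-values therefore reflect only the variation among these libraries, which may be technical.

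NF-κB proteins act as dimers of 2 subunits. At rest the IκB proteins hold dimers in the cytoplasm, and signals from the B cell receptor, Toll-like receptors or TNF family receptors activate the IKK kinases, which mark IκB for degradation in the canonical pathway. A slower, non-canonical pathway processes the Nfkb2 precursor and frees dimers with Relb. In B cells these factors maintain survival and follow antigen and BAFF signals, and several of their own inhibitors are transcribed as feedback targets.

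Values are FPKM, which divide fragments by transcript length and by library size. Depth read from the steps of low values was 41800000 to 46300000 fragments in knockdown libraries and 40500000 to 47700000 in control libraries. The lowest value of any member, 6.60 FPKM for Rel in knockdown replicate 4, then stood for about 305 fragments per kilobase, so that counting error was small beside the spread between libraries. Kdm1a had 20.2, 21.04, 15.6 and 15.5 FPKM in knockdown replicates 1, 2, 5 and 4, against 24.2, 21.2, 24.1 and 31.1 FPKM in control replicates 1 to 4. Its knockdown mean was 71.9% of the control mean (two-sided exact permutation p = 0.0286, the smallest that 70 assignments allow), while limma's adjusted p over all genes was 0.223. Any gene whose groups do not overlap reaches that permutation p, and 13.1% of the 12890 genes tested had such groups. The highest Kdm1a value in knockdown, 21.04 FPKM, lay close to the lowest in control, 21.2 FPKM. The B cell marker Cd79a was abundant in every library, at 355 to 922 FPKM in knockdown and 909 to 1300 FPKM in control libraries. The 4 knockdown libraries and control replicate 1 held Xist and had Ddx3y at 0, whereas control replicates 2 to 4 held Ddx3y, so sex and group were nearly the same split.

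Several members are known feedback targets, and their promoters were searched for a simple form of the κB site. The letters GGGNNNTTCC (N is any base), or their reverse complement GGAANNNCCC, were sought on both strands in RefSeq windows (GRCm38.p6) of 300 bases, 250 before and 50 after an annotated start. Windows were held for 8 of the 10 members, 11 windows in all, and 8 of these 11 held the letters, against 5.56% of all 32851 windows. In Nfkb2, 2 of the 3 windows overlap and share 1 of their matches. The matches belonged to 5 of the 8 genes, Nfkb2, Rel, Nfkbia, Nfkbie and Tnfaip3, beside 6.31% of all 27025 genes with a window. The windows of Rela, Nfkbib and Bcl3 did not hold these letters. One stretch of 60 bases from each of the 5 genes is shown because these members hold the letters. Each is written 5′ to 3′ on the gene's own strand, upstream of a RefSeq start, with the matching letters in capitals.
Nfkb2 (chr19:46304677-46304736, plus strand): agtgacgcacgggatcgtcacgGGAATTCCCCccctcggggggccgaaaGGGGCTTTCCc
Rel (chr11:23771030-23771089, minus strand): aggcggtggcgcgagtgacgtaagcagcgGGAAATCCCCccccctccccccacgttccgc
Nfkbia (chr12:55492648-55492707, minus strand): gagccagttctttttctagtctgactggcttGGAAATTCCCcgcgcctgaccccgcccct
Nfkbie (chr17:45555570-45555629, plus strand): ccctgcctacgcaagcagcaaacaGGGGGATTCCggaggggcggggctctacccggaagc
Tnfaip3 (chr10:19015411-19015470, minus strand): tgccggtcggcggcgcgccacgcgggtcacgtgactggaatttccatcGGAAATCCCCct
The Nfkbia match lies 29 to 20 bases before the RefSeq start, and that of Rel 91 to 82 bases before it. Such a match describes the letters in the window and does not show that a factor is bound.

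All 10 members were expressed in every library and passed the filter, which asked for 1 FPKM or more in 4 or more of the 8 libraries. By limma's fit to log2(FPKM + 1), 0 of the 10 had an adjusted p under 0.05, beside 1.74% of the 12890 genes tested (1.63% higher and 0.109% lower in knockdown), and 0 had an unadjusted p under 0.05, beside 19.2% of all genes. In no member were the groups free of overlap, against 13.1% of genes tested. The members' log2 changes lay between −0.56 for Nfkbie and −0.00 for Relb, with a median of −0.13, while the median of all genes tested was 0.13. All 10 were below 0, as were 36.3% of all genes. In mean FPKM, however, Nfkb2, Relb and Nfkbia were slightly higher in knockdown. In knockdown replicate 4, 9 of the 10 members had their lowest value, as did 25.7% of all genes. That library also had the lowest B cell and plasma cell marker levels and the lowest level of immediate early genes. Its erythroid level and its monocyte and macrophage level were the highest. In bulk libraries fewer cells of a type and less RNA per cell cannot be told apart. Without that library 5 of the 10 log2 changes were below 0 and their median was 0.00.

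**Figure D1:**
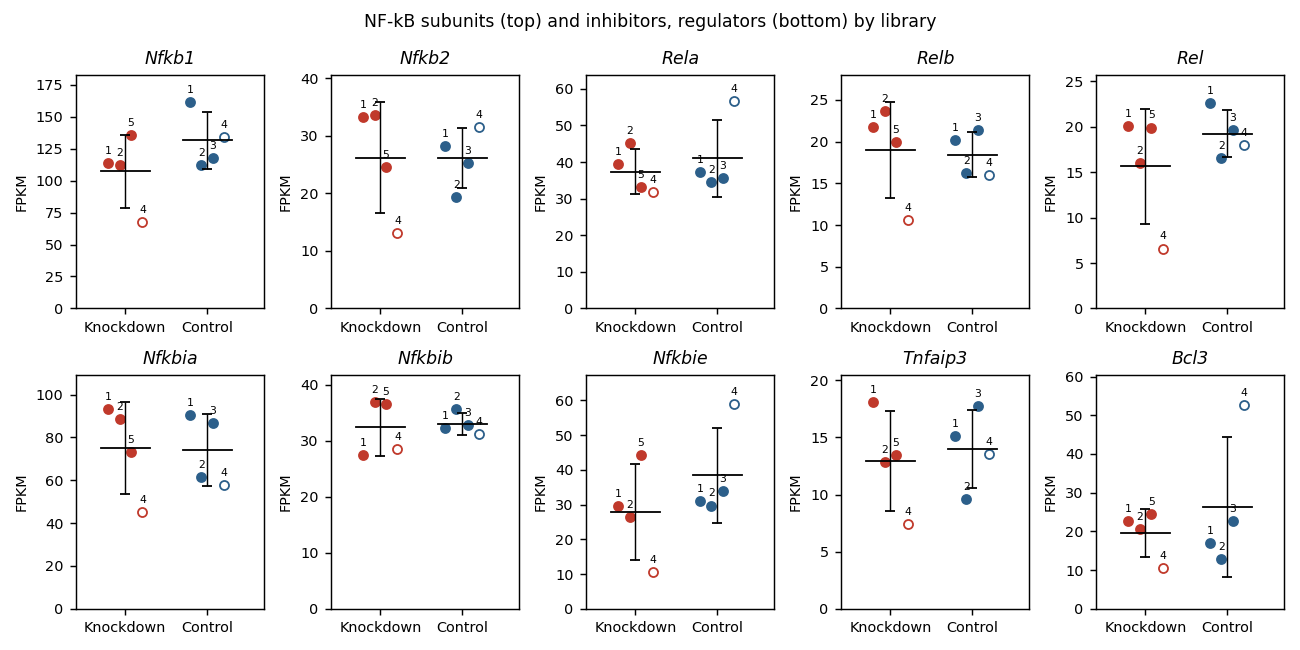
FPKM of the 10 genes in each library, with knockdown on the left and control on the right of each panel. Points are libraries with their replicate numbers (open points, replicate 4), horizontal lines are means and bars are SD (n = 4). Knockdown replicate 4 is the lowest library in every panel except Nfkbib, and the groups overlap in every panel.

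Among the subunits of the canonical pathway, Nfkb1 was the most abundant. It encodes the precursor of a DNA-binding subunit that has no transactivation domain of its own (ENSMUSG00000028163, GENCODE M21 on GRCm38, chr3:135584655-135691547, minus strand). Nfkb1 had 114, 112, 136 and 67.6 FPKM in knockdown replicates 1, 2, 5 and 4, against 162, 112, 118 and 134 FPKM in control replicates 1 to 4. Control replicate 1 was the highest library and knockdown replicate 4 the lowest, and the remaining 6 lay between 112 and 136 FPKM. The mean was 107 ± 28.6 FPKM in knockdown and 131 ± 22.1 FPKM in control libraries (SD, n = 4 each), a log2 change of −0.32 ± 0.24 (SE) with limma's adjusted p = 0.473. Without knockdown replicate 4 its log2 change was −0.12.

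Rela encodes the main transactivating subunit of the canonical heterodimer (chr19:5637483-5648130, plus strand). It had 39.5, 45.3, 33.1 and 31.8 FPKM in knockdown libraries (replicates 1, 2, 5 and 4), against 37.3, 34.6, 35.6 and 56.8 FPKM in control libraries (replicates 1 to 4). The highest value was that of control replicate 4, while the other 3 controls lay between 34.6 and 37.3 FPKM, inside the knockdown range. The log2 change was −0.12 with a 95% interval of −0.58 to 0.35, and it was 0.05 without control replicate 4.

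Rel encodes the lymphoid-enriched subunit c-Rel, which in B cells follows antigen and Toll-like receptor signals (chr11:23736847-23770970, minus strand). It had 20.1, 16.1, 19.9 and 6.60 FPKM in knockdown replicates 1, 2, 5 and 4, against 22.6, 16.6, 19.7 and 18.04 FPKM in control replicates 1 to 4. Apart from knockdown replicate 4, all libraries fell within 16.1 to 22.6 FPKM. The Rel log2 change was −0.38 (95% interval −1.09 to 0.33) over all 8 libraries and −0.04 without knockdown replicate 4. That library's value was 33.1% of the median of the other 3 knockdown libraries, the lowest such share among the members.

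The non-canonical pair gave near-equal group means. Nfkb2, whose precursor acts both as an inhibitor and as the source of a DNA-binding subunit (chr19:46304320-46312385, plus strand), had 33.3, 33.6, 24.6 and 13.2 FPKM in knockdown replicates 1, 2, 5 and 4, against 28.2, 19.3, 25.3 and 31.6 FPKM in control replicates 1 to 4. Nfkb2 averaged 26.2 ± 9.62 FPKM in knockdown and 26.1 ± 5.197 FPKM in control libraries (SD, n = 4 each), and the 2 highest and the lowest of the 8 values were all knockdown libraries. Its log2 change of −0.06 became 0.23 without knockdown replicate 4.

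Relb, the partner that completes the non-canonical dimer (chr7:19606217-19629438, minus strand), had 21.7, 23.7, 19.96 and 10.6 FPKM in knockdown replicates 1, 2, 5 and 4, against 20.1, 16.3, 21.4 and 16.0 FPKM in control replicates 1 to 4. Knockdown libraries held both the highest and the lowest value. The log2 change of Relb was −0.00 with a 95% interval of −0.56 to 0.56, and 0.24 without knockdown replicate 4. Bcl3 lies 179023 bases from Relb on the same strand, and was highest in control replicate 4, where Relb had its second lowest value.

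**Figure D2:**
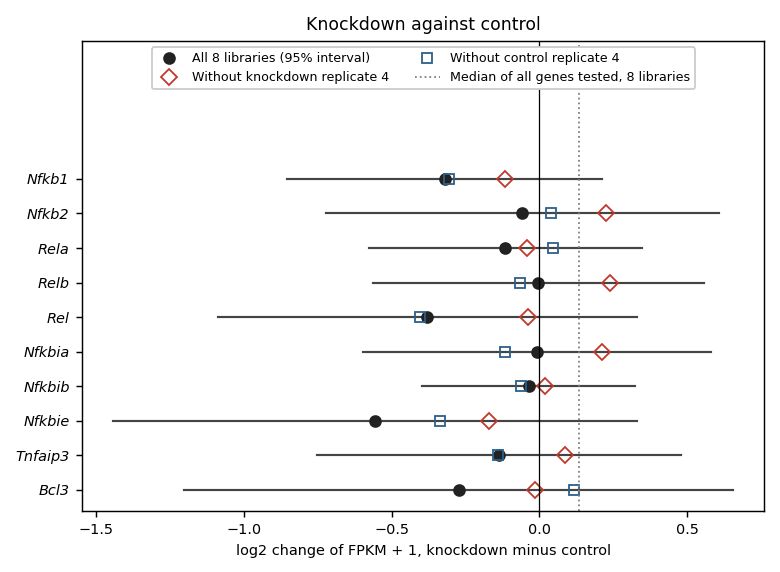
Log2 change of FPKM + 1, knockdown minus control, for each gene (black points, 95% interval over 8 libraries), and the same without knockdown replicate 4 (red diamonds) or control replicate 4 (blue squares). Every interval spans 0, and the diamonds lie right of the black points for all 10 genes.

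Among the inhibitors, Nfkbia had the highest level. It encodes IκBα, which retains canonical dimers in the cytoplasm and is itself a rapid NF-κB target (chr12:55489410-55492647, minus strand). Nfkbia had 93.1, 88.8, 73.0 and 45.2 FPKM in knockdown replicates 1, 2, 5 and 4, against 90.4, 61.7, 86.7 and 57.9 FPKM in control replicates 1 to 4. Both groups spanned a wide range, and only knockdown replicate 4 lay outside the range of the other group on the low side. Its means were 75.0 ± 21.7 FPKM in knockdown and 74.2 ± 16.7 FPKM in control libraries (SD, n = 4 each). The log2 change, taken from means of log2(FPKM + 1), was −0.01, with fold limits of 0.661 to 1.49.

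Nfkbib, the gene of IκBβ, whose resynthesis after a signal is slower (chr7:28758251-28767512, minus strand), was the steadiest member. It had 27.5, 37.0, 36.6 and 28.5 FPKM in knockdown replicates 1, 2, 5 and 4, against 32.2, 35.7, 32.9 and 31.2 FPKM in control replicates 1 to 4. The 4 controls lay inside the knockdown range, and knockdown replicate 1, not 4, was the lowest. The Nfkbib log2 change of −0.04 had the narrowest 95% interval of the members, with fold limits of 0.759 to 1.25.

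Nfkbie encodes IκBε, an inhibitor prominent in lymphocytes and bound mainly to Rel and Rela dimers (chr17:45555703-45563169, plus strand). Nfkbie had 29.7, 26.3, 44.4 and 10.6 FPKM in knockdown replicates 1, 2, 5 and 4, against 31.0, 29.7, 34.0 and 58.8 FPKM in control replicates 1 to 4. The lowest and highest values belonged to replicate 4 of each group. This member had the lowest log2 change, −0.56 ± 0.40 (SE; limma's adjusted p = 0.453), which was −0.17 without knockdown replicate 4, −0.33 without control replicate 4 and 0.05 without both.

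Tnfaip3, a ubiquitin-editing enzyme that shuts off signals upstream of IKK (chr10:19000910-19015657, minus strand), had the lowest mean level of the members. It had 18.1, 12.8, 13.4 and 7.41 FPKM in knockdown replicates 1, 2, 5 and 4, against 15.2, 9.62, 17.7 and 13.5 FPKM in control replicates 1 to 4. The highest and the lowest of the 8 values were both knockdown libraries. The log2 change was −0.14 (95% interval −0.75 to 0.48), and it was 0.09 without knockdown replicate 4.

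Bcl3 encodes a nuclear IκB protein that binds homodimers of the Nfkb1 and Nfkb2 products on DNA (chr7:19808462-19822770, minus strand). Bcl3 had 22.6, 20.7, 24.4 and 10.5 FPKM in knockdown replicates 1, 2, 5 and 4, against 17.1, 12.9, 22.7 and 52.7 FPKM in control replicates 1 to 4. Control replicate 4 was the highest library, and the 3 remaining controls averaged 17.6 ± 4.88 FPKM (SD, n = 3). The Bcl3 log2 change was −0.27 over all libraries, 0.12 without control replicate 4 and 0.38 without replicate 4 of both groups, so its sign rested on these libraries. Reads of Bcl3, Nfkb2 and Nfkbib may not be told apart from those of genes that overlap them on the other strand, because strandedness was not given in the sources used here. Nfkb1 is overlapped by Gm43430 on its own strand, and Kdm1a by Gm12987 on its own strand and Luzp1 on the other.

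On the FPKM scale, which is per length, Nfkb1 lay above Nfkbia in 8 of 8 libraries, by a mean log2 difference of 0.67 ± 0.32 (SD), and Nfkbia above Rela in 8 of 8, by 0.89 ± 0.44. In control replicate 4 Nfkbie, at 58.8 FPKM, was level with Nfkbia, at 57.9 FPKM. Below these, neighbours by mean log2 level changed places between libraries. Rela exceeded Nfkbib in 6 of 8, Nfkbib exceeded Nfkbie in 4 of 8, Nfkbie exceeded Nfkb2 in 5 of 8, Bcl3 exceeded Relb in 4 of 8 and Relb exceeded Rel in 5 of 8. The order closed with Rel above Tnfaip3 in 7 of 8.

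Nfkb1 made up 49.8%, 48.5%, 58.2% and 52.1% of the summed FPKM of the 5 subunits in knockdown replicates 1, 2, 5 and 4, against 59.9%, 56.5%, 53.6% and 52.3% in control replicates 1 to 4. The sum itself was 228, 231, 234 and 130 FPKM in knockdown replicates 1, 2, 5 and 4, against 270, 199, 220 and 256 FPKM in control replicates 1 to 4. Rel made up 5.09% in knockdown replicate 4 and 6.97% to 8.97% in the other 7 libraries, and Rela 24.5% there and 13.8% to 22.2% elsewhere. The ratio of the 3 IκB inhibitors to the 5 subunits, each summed as FPKM, was 0.659, 0.659, 0.659 and 0.650 in knockdown replicates 1, 2, 5 and 4 and spread from 0.569 to 0.699 in the controls. These proportions were chosen after their values were seen and were not tested.

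**Figure D3:**
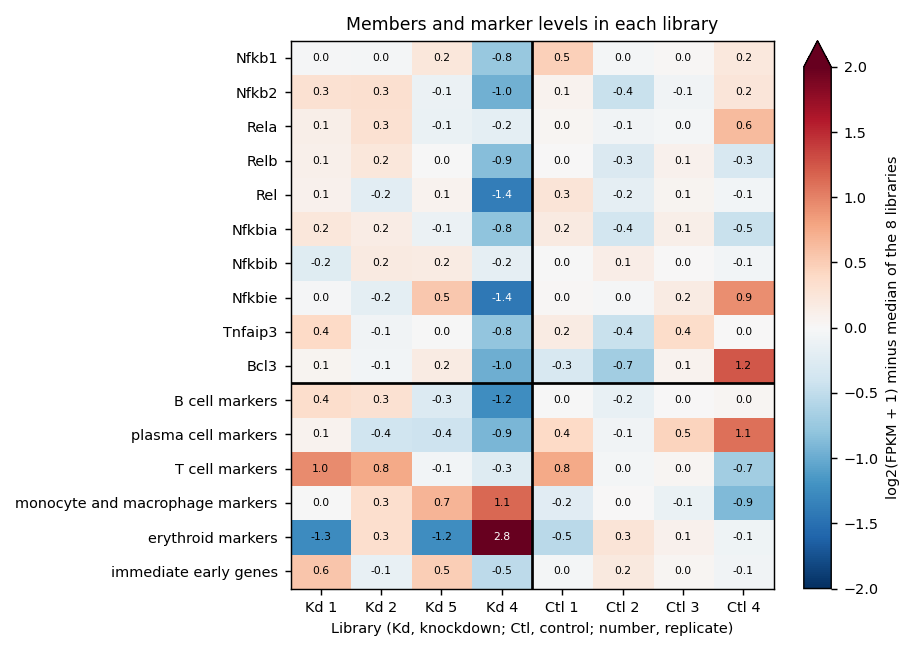
Log2(FPKM + 1) of each gene (above the line), and mean log2(FPKM + 1) of marker lists (below it), minus the median of the 8 libraries, by library. The colour scale ends at 2, beyond which erythroid markers reach 2.8 in knockdown replicate 4. In that library 9 of the 10 genes and the mean level of the B cell markers are lowest.

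Marker RNA levels in knockdown replicate 4 lay apart from those of the other libraries. Its mean log2(FPKM + 1) over 10 B cell markers was 5.94, against 6.91 to 7.54 in the other 7 libraries, and over 12 erythroid markers 9.17, against 5.10 to 6.69. Summed FPKM of the B cell markers was 1270 to 3376 in knockdown and 3515 to 4196 in control libraries, and that of the erythroid markers 982 to 29669 and 3157 to 8382. All markers of both lists were above 0 in every library. Of the 10 B cell markers, 8 had a log2 change below 0 and 2, Fcer2a (1.65) and Cr2 (1.02), above it. In knockdown replicate 4 Fcer2a had 13.8 and Cr2 18.5 FPKM, more than in knockdown replicate 5 (8.61 and 6.39 FPKM). Both values also exceeded every control (at most 7.17 and 18.2 FPKM). Relative to the median of the other 3 knockdown libraries, B cell markers stood at 23.7% to 45.7% in knockdown replicate 4, and the members at 33.1% (Rel), 35.7% (Nfkbie), 39.6% (Nfkb2), 46.7% (Bcl3), 49.1% (Relb), 50.9% (Nfkbia), 55.2% (Tnfaip3), 59.5% (Nfkb1), 77.9% (Nfkbib) and 80.4% (Rela). T cell markers stood at 38.5% to 66.8% by that measure, and NK cell markers at 40.6% to 92.0%. Plasma cell markers stood at 40.1% to 99.5%, and dendritic cell markers at 55.6% to 241%. Monocyte and macrophage markers stood at 68.3% to 305%, neutrophil markers at 71.1% to 451%, and megakaryocyte and platelet markers at 75.0% to 149%. Erythroid markers stood at 363% to 6713%. The part of these marker levels in the members' values was not tested. With the B cell marker level as a covariate, the members' log2 changes lay between −0.40 and 0.12 and 0 passed the threshold. That level was highest in knockdown replicates 1 and 2, at 7.54 and 7.49, against 7.03 to 7.22 in control libraries. Summed FPKM of the same markers, by contrast, was lower in every knockdown library than in any control. The covariate and the sum thus order the libraries differently. Control replicate 4, where Rela, Nfkbie and Bcl3 were highest, had the highest plasma cell level, 6.27 against 4.24 to 5.62 elsewhere on the log2 scale. It also had the lowest T cell, NK cell, monocyte and macrophage, dendritic cell, and megakaryocyte and platelet levels of the 8 libraries. Its FPKM summed to 572660, against 671732 to 762888 in the others, and mitochondrial genes took 7.47% of that sum, against 9.94% to 15.1%. The part of these in the values of Rela, Nfkbie and Bcl3 was not tested.

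Members correlated with each other over all libraries and little without knockdown replicate 4. Over the 45 pairs of members and 8 libraries, Pearson's r of log2(FPKM + 1) had a median of 0.63, and without knockdown replicate 4 a median of 0.04, ranging from −0.67 (Nfkbib with Tnfaip3) to 0.92 (Relb with Nfkbia). These points share library depth and cell composition. Receptor segments and predicted models were left out of a search for genes like a member. Those most like Rel over the 8 libraries were Cyth1, Kcnq5 and Itgal (r = 0.99, 0.99 and 0.98), the last being the integrin chain of leukocyte adhesion. Those most like Nfkbia were Fcrl1, a B cell Fc receptor-like gene, Hps3 and Ptprc, the leukocyte common antigen (r = 0.99, 0.98 and 0.97). For Nfkbie they were Cobll1, Hivep2 and Cblb (r = 0.997, 0.988 and 0.983), and for Rela Dalrd3, Flii and Phf12 (r = 0.99, 0.99 and 0.98). Cobll1 had 3.01 FPKM in knockdown replicate 4 and at least 9.18 FPKM in the other libraries, and Cyth1 20.97 FPKM against at least 46.3 FPKM. These genes were picked for the highest r among many over 8 libraries, so high values follow in part from that choice.

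The rest of the pathway was described through 6 lists chosen by role, 120 genes in all, of which 109 were tested. These lists were chosen with earlier results of these data known. The call rate was 1 of 109, beside 1.74% of all genes tested, and the groups did not overlap in 10, beside 13.1%. Among 11 other IκB family and feedback genes 0 passed, with 0 at an unadjusted p under 0.05 (limma), beside 19.2% of all genes. In log2 change 8 were below 0, beside 36.3% of all genes (list median −0.14). The smallest p belonged to Zc3h12a, an RNase that limits inflammatory transcripts, with 11.2 ± 4.18 FPKM in knockdown and 15.5 ± 3.68 FPKM in control libraries, and to Pdlim2, a ubiquitin ligase for Rela, with 41.9 ± 14.7 and 57.5 ± 14.6 FPKM (SD, n = 4 each). Neither gene's groups were apart.

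The IKK kinases and adaptors had a median log2 change of 0.10, and 0 of 25 passed. At an unadjusted p under 0.05 (limma) were 2, beside 19.2% of all genes. Tab1, an adaptor of the kinase upstream of IKK, had 12.6, 16.2, 8.41 and 17.9 FPKM in knockdown replicates 1, 2, 5 and 4, against 8.51, 8.36, 8.41 and 6.195 FPKM in control replicates 1 to 4. Knockdown replicate 5 thus sat among the controls (log2 change 0.70, limma's adjusted p = 0.169). Birc2, a ubiquitin ligase that restrains the non-canonical pathway, had 33.4, 32.1, 32.7 and 26.4 FPKM in knockdown replicates 1, 2, 5 and 4 and 45.4, 34.3, 41.1 and 43.6 FPKM in control replicates 1 to 4. The Birc2 groups did not overlap, but its log2 change of −0.39 had an adjusted p of 0.232 in limma. The 3 subunits of the IKK complex, named for their role, were Chuk (36.7 ± 3.43 FPKM in knockdown, 33.7 ± 2.59 FPKM in control), Ikbkb (64.9 ± 20.8 and 72.0 ± 12.0 FPKM) and Ikbkg (17.99 ± 0.947 and 16.4 ± 2.64 FPKM; SD, n = 4 each), and none passed.

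In the arm from the B cell receptor to NF-κB 13 of 14 genes were below 0, beside 36.3% of all genes. The median log2 change was −0.46 and 0 passed, with 1 at an unadjusted p under 0.05 (limma), beside 19.2% of all genes. Plcg2, the phospholipase that links the receptor to protein kinase C, had 66.6, 67.9, 69.1 and 23.4 FPKM in knockdown replicates 1, 2, 5 and 4, against 90.6, 111, 90.4 and 129 FPKM in control replicates 1 to 4. Its groups did not overlap (log2 change −0.99, limma's adjusted p = 0.172). Cd79a, a signalling chain of the receptor and also one of the B cell markers, averaged 716 ± 254 FPKM in knockdown and 1094 ± 163 FPKM in control libraries (SD, n = 4 each). The B cell marker level was lowest in knockdown replicate 4, as given above, and its part in the values of this list was not tested.

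Of 21 receptors and their adaptors 0 passed, with 5 at an unadjusted p under 0.05 (limma), beside 19.2% of all genes. Below 0 were 14, beside 36.3% of all genes. Ltbr, the lymphotoxin beta receptor and an activator of the non-canonical pathway, had 3.91, 3.85, 2.17 and 4.52 FPKM in knockdown replicates 1, 2, 5 and 4, against 1.85, 1.72, 1.48 and 0.898 FPKM in control replicates 1 to 4. Every knockdown library was above every control, with a log2 change of 0.88 (limma's adjusted p = 0.0922). Tnfrsf1a, a receptor for TNF, averaged 11.2 ± 2.93 FPKM in knockdown and 5.77 ± 1.60 FPKM in control libraries (SD, n = 4 each). Monocyte and macrophage markers had a summed level of 431 to 830 FPKM in knockdown and 125 to 332 FPKM in control libraries, with all 11 markers above 0 in log2 change, and their part in these 2 receptor values was not tested.

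Among 9 ligands Tnfsf18 fell and no other passed, beside 1.74% of all genes tested (0.109% lower in knockdown). Above 0 in log2 change were 7 of the 9, beside 8207 of all 12890 genes, with a list median of 0.19, beside 0.13. At an unadjusted p under 0.05 (limma) were 2, beside 19.2% of all genes. The groups did not overlap in 2, beside 13.1%. Tnfsf18, the ligand of the costimulatory receptor GITR, had 2.56, 1.97, 2.16 and 0.970 FPKM in knockdown replicates 1, 2, 5 and 4, against 5.10, 8.77, 5.13 and 4.96 FPKM in control replicates 1 to 4. The groups lay well apart at a low level, with a log2 change of −1.26 ± 0.25 (SE; limma's adjusted p = 0.0382). That call was lost under 11 of 19 alternatives, among them leaving out knockdown replicate 2 or 4 or any 1 control (adjusted p = 0.0546 to 0.124), while the log2 change stayed between −1.63 and −0.66 over the 19.

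Genes known as NF-κB targets lay near the background. Of 34 tested, 23 had a log2 change above 0, beside 8207 of all 12890 genes, and their median was 0.20, beside 0.13. None of the 34 passed, with 7 at an unadjusted p under 0.05 (limma), beside 19.2% of all genes. Stat5a, a transcription factor of cytokine signals, had 18.8, 27.0, 17.8 and 27.9 FPKM in knockdown replicates 1, 2, 5 and 4, against 13.2, 13.7, 10.7 and 12.2 FPKM in control replicates 1 to 4 (log2 change 0.80, limma's adjusted p = 0.0792). Ier3, a stress-induced survival gene, had 4.52, 5.25, 2.62 and 13.2 FPKM in knockdown replicates 1, 2, 5 and 4, against 1.19, 1.90, 1.502 and 0.817 FPKM in control replicates 1 to 4 (log2 change 1.49, limma's adjusted p = 0.0865). In both genes the lowest knockdown library exceeded the highest control, and neither passed over all genes.

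**Figure D4:**
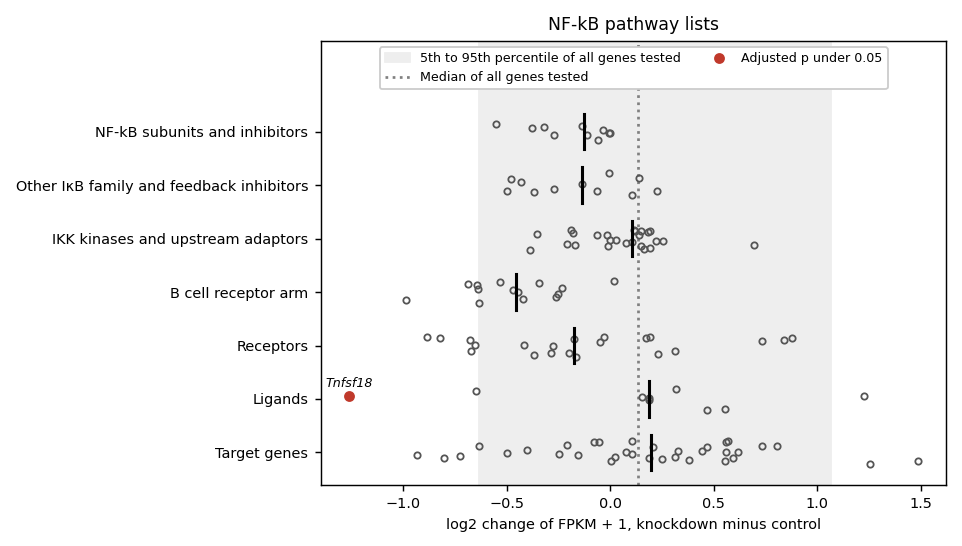
Log2 change of FPKM + 1, knockdown minus control, for each tested gene of the 10 NF-κB genes and 6 pathway lists (circles), with list medians (black bars). The red point is Tnfsf18, the only listed gene with an adjusted p under 0.05, and the grey band (5th to 95th percentile) and dotted line (median) give all 12890 genes tested.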

How the data were processed

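Polyadenylated RNA of splenic mononuclear cells was sequenced, per the labels. The authors deposited 1 table of FPKM values, with 54018 identifiers and 8 columns. CASAVA and Cufflinks appear, with no version, in the submitters' processing notes (aligner, build, annotation and strandedness: not given in the sources used here). GENCODE M21 (GRCm38) named 53951 identifiers. Because FPKM are relative, a few very abundant transcripts can shift all other values of a library. Depth was estimated from single-transcript genes of 1500 bases or more, taking 200 bases off each length, and 98.0% to 98.8% of low values were within 5% of a whole multiple.

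Knockdown and control libraries (n = 4 each) were compared with limma 3.58.1 in R 4.3.3 (log2(FPKM + 1), mean-variance trend, no covariate) over the 12890 genes with 1 FPKM or more in 4 or more libraries, with Benjamini-Hochberg adjustment and a threshold of 0.05. The added 1 understates changes of low genes. Python 3.11.15, pandas 2.3.3, numpy 2.4.6, scipy 1.17.1 and matplotlib 3.10.9 were used for tables and plots. The fit was tested on simulated data. Alternatives changed the pseudocount, filter, scaling, weights, covariates, replicate block and libraries.

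Members and lists were chosen with earlier results of these data known. The text names all members, for each list the genes past the threshold or else the 2 with the smallest p, and genes most like a member by Pearson's r, leaving out receptor segments and predicted models. The IKK subunits and Fos were added for their role. No batch is given in the labels.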

Additional observations from a re-analysis of the deposited data

Results flagged for a closer look

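Rela in control replicate 4 stood apart from the rest of its group, at 56.8 FPKM against 34.6 to 37.3 FPKM in the other 3 controls. That library also had the lowest FPKM sum, 572660, and the lowest mitochondrial share, 7.47%, of the 8 libraries. It was the only outlying value among 22 groups of 4 libraries examined (the members and Kdm1a), and about 1 in 20 such groups is marked by chance.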

How the results depend on the processing

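No member passed the threshold under any of 20 alternatives, and the lowest adjusted p of a member was 0.245. Of 80 member values with 1 library left out, 14 changed sign, and of 120 under other alternatives, 20 did. With 1 library left out, log2 changes ran from −0.20 to 0.23 (Nfkb2), −0.21 to 0.0473 (Rela), −0.12 to 0.24 (Relb), −0.13 to 0.21 (Nfkbia), −0.10 to 0.035 (Nfkbib), −0.31 to 0.0876 (Tnfaip3) and −0.53 to 0.12 (Bcl3), each with a change of sign, while Nfkb1, Rel and Nfkbie stayed below 0.
Signs also turned with array weights (Nfkb2 0.29, Rela 0.13, Relb 0.17, Nfkbia 0.11, Tnfaip3 0.0291, Bcl3 0.21), with the B cell covariate (Nfkb2 0.10, Relb 0.11, Nfkbia 0.11), with a pseudocount of 5 (Relb 0.0047), with sex as a covariate, which sets the knockdown against control replicate 1 alone (Bcl3 0.12), and without replicate 4 of both groups (Nfkb2 0.32, Rela 0.12, Relb 0.18, Nfkbia 0.11, Nfkbie 0.0482, Tnfaip3 0.0815, Bcl3 0.38).
The 224 genes called over all genes were 24 with a pseudocount of 5, 2 without a filter, 71 with a mean floor of 5 FPKM, 124 after median-of-ratios scaling, 126 after quantile normalization, 761 with array weights, 2 with the sex covariate, 342 with the B cell covariate, 120 without replicate 4 of both groups, and 8 to 333 with 1 library left out. The 1 gene called in the pathway lists was 0, 0, 0, 6, 0, 2 and 0 with a pseudocount of 5, without a filter, with a mean floor of 5 FPKM, with array weights, with the sex covariate, with the B cell covariate and without replicate 4 of both groups, and 0 to 4 with 1 library left out. The cause of these moves was not tested.
Median-of-ratios scaling brought the median of all genes to 0.00, and that of the members to −0.26. With the replicate number as a block 0 genes and 0 pathway genes were called over all genes, and Relb (0.026) and Nfkbia (0.0694) changed sign. The labels give only a number and do not say whether same-numbered libraries belong together. Deviations of same-numbered libraries correlated at 0.16, 0.05 and −0.12, beside −0.15 to 0.15 for the other pairs. So few pairs cannot decide whether the libraries were paired. Kdm1a stayed below 0 throughout, at −0.53 to −0.35 with 1 library left out. With 4 libraries a group, the members' 95% intervals reached from 0.368-fold to 1.58-fold.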

Other observations

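Immediate early genes, which respond to signals and to handling of cells, were measured beside the members because several NF-κB inhibitors respond to the same stimuli. Of 13 tested genes of that list, 9 had a log2 change above 0, beside 8207 of all 12890 genes tested, and their median was 0.30, beside 0.13. Their mean log2(FPKM + 1) was 4.50, 3.78, 4.43 and 3.41 in knockdown replicates 1, 2, 5 and 4, against 3.90, 4.13, 3.97 and 3.86 in control replicates 1 to 4, so the groups overlapped. Fos had 129, 45.7, 144 and 39.9 FPKM in knockdown replicates 1, 2, 5 and 4, against 37.2, 78.2, 44.3 and 10.3 FPKM in control replicates 1 to 4. Knockdown replicates 1 and 5 were highest in Fos, whereas Nfkbia was highest in knockdown replicate 1 and control replicate 1.

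T cell markers had a summed level of 224 to 526 FPKM in knockdown and 164 to 477 FPKM in control libraries, NK cell markers of 87.7 to 156 and 34.5 to 163 FPKM, dendritic cell markers of 31.2 to 54.1 and 21.98 to 45.4 FPKM, and plasma cell markers of 455 to 972 and 943 to 1640 FPKM. Neutrophil markers summed to 25.8 to 206 FPKM in knockdown and 68.8 to 464 FPKM in control libraries, and megakaryocyte and platelet markers to 21.9 to 68.1 and 6.90 to 15.0 FPKM, the last without overlap.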
